A study of Mus musculus with 14 samples.

Results

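The 10 genes described belong to the axon injury programme and the integrated stress response: Atf3, Jun, Sprr1a, Gap43, Sox11, Ddit3, Atf4, Atf5, Trib3 and Chac1. They were taken by symbol, and all were found among the 55422 entries counted. Injured neurons switch on transcription factors such as Jun, Atf3 and Sox11 through the kinase DLK and Jun N-terminal kinase, and growth proteins such as GAP43 and SPRR1A follow. In the integrated stress response, kinases that sense misfolded protein, amino acid shortage, viral RNA or haem deficiency phosphorylate the initiation factor eIF2, which lowers general protein synthesis and raises translation of the Atf4 and Atf5 messages. Their products then drive genes such as Ddit3, which encodes CHOP, Trib3 and Chac1.

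The data were polyadenylated RNA from the brainstem of 7 mice, in 14 libraries, made to profile the RNA of noradrenergic neurons of the locus coeruleus under mutant tau. All animals had the genotype TH-Cre;Slc6a2-eGFP/Rpl10a on a C57Bl/6 background, in which tyrosine hydroxylase sequences drive Cre and Slc6a2 (noradrenaline transporter) sequences drive a tagged ribosomal protein. The latter sequences are active in noradrenergic cells in general, so tagged ribosomes need not come from the locus coeruleus alone. At 2 to 3 months of age, 4 of them (animals B, C, L and M) were infused in the locus coeruleus with P364S mutant human tau and 3 (animals H, I and K) with enhanced yellow fluorescent protein (EYFP). Each animal gave an immunoprecipitate (IP) and the total homogenate before it (pre-IP), which makes 4 IP and 4 pre-IP libraries of tau animals and 3 of each kind of EYFP animals. Animals are the replicates. The main fits that span both fractions held no term for the animal, and fits with the animal as a block are alternatives.

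The promoters of 3 members are shown because they hold short motifs that factors of these pathways are known to bind. In the 250 bases before each RefSeq start (GRCm38.p6), both strands were searched for the core of the C/EBP-ATF response element, TGATGNAAN, for the AP-1 site, TGANTCA, to which Jun family dimers bind, and for the cyclic AMP response element, TGACGTCA. Each sequence runs 5′ to 3′ on the strand of its gene, with the match in capitals. The response element core lay on the opposite strand in both genes that held it.
Atf3, chr1:191183416-191183464, minus strand: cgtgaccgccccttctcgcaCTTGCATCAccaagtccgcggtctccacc
Chac1, chr2:119351028-119351076, plus strand: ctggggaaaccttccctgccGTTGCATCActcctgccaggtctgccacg
Sprr1a, chr3:92486001-92486047, minus strand: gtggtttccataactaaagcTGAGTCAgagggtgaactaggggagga
Sprr1a, chr3:92485971-92486017, minus strand: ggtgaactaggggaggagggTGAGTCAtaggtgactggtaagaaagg

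The Atf3 match lay 111 to 103 bases before the start, inside an intron of 1 longer annotated transcript. The Chac1 match lay 194 to 186 bases before the start, and the Sprr1a matches 146 to 140 and 116 to 110 bases before it, outside annotated exons. Ddit3 held 1 AP-1 match, 242 to 236 bases before its start, in a stretch that overlaps annotated exons. The promoter table held 9 of the 10 members, and Gap43 was not matched. Jun, Sox11, Atf4, Atf5 and Trib3 had no match to these letters in this window. For Sox11 and Trib3 the bases just after the RefSeq start were not found in an annotated transcript of the gene. Of 32851 promoters in the table, 3.44% held the response element core, 6.75% the AP-1 site and 1.55% the cyclic AMP response element, so the matches describe these windows and show no binding.

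Total counts ran from 41843489 to 65664551 per library. The RNA integrity number was 7.7 to 9 in 13 libraries and 4.2 in the EYFP IP of animal I, and IP RNA was 0.1 to 0.8 ng per microlitre in tau animals against 0.7 to 2.8 in EYFP animals. Animal K, labelled EYFP, had 398 to 408 counts of the tau construct per library, against 2 to 18 in animals H and I and 3527 to 47177 in the tau animals. Y-linked genes had 674 counts in the pre-IP and 1153 in the IP of animal M, whose label is female. Xist had 0 counts in the pre-IP and 21 in the IP of M. In the other animals labelled female, C, H and K, it had 44, 42 and 32 counts in the pre-IP and 16, 120 and 54 in the IP. All libraries labelled male had 0 counts of Xist. The sex covariate among the alternatives used the labels as given. Values without K, M or both are given beside some of the main results. The 10 noradrenergic markers listed, none at 0 in any library, summed to 343 to 417 CPM (the count scaled to the total of its library) in pre-IP, 462 to 530 in EYFP IP and 872 to 5467 in tau IP. Dbh, which encodes the enzyme that makes noradrenaline from dopamine, had 758 ± 486 CPM in tau IP (SD, n = 4) and 40.6 ± 13.9 in EYFP IP (SD, n = 3). All 10 markers had an unadjusted edgeR p under 0.05 between tau and EYFP IP, and none an adjusted p under 0.05, or 0 to 10 on leaving out 1 animal. The marker sums in pre-IP were 350 to 384 CPM in tau animals and 343 to 417 in EYFP animals. The treatments thus stood apart in IP and overlapped in the homogenate, and the cause was not tested. In such bulk libraries fewer cells of a type and less RNA per cell cannot be told apart.

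All 10 members were detected in every library. The lowest count was 12, for Trib3 in the tau IP of animal M, and the highest was 91506, for Gap43 in the tau IP of animal B. On a scale per length (RPKM, CPM per kilobase of exon), Gap43 led the pre-IP with 446 ± 74.6 RPKM, followed by Atf4 with 75.6 ± 13.2, Ddit3 with 30.8 ± 4.04, Chac1 with 17.01 ± 2.15 and Jun with 14.4 ± 1.51 (SD, n = 7 each). The ranges of Chac1 and Jun overlapped, while those of the other neighbours in this upper group did not. Atf5 with 2.19 ± 0.436, Sprr1a with 1.80 ± 1.18, Atf3 with 0.896 ± 0.192, Sox11 with 0.750 ± 0.118 and Trib3 with 0.722 ± 0.213 RPKM (SD, n = 7 each) formed a low group whose neighbours all overlapped. The order in IP was the same down to Sprr1a, from Gap43 at 650.5 ± 257 RPKM to Atf3 at 0.680 ± 0.238 (SD, n = 7 each). Gap43 and Atf4 thus carried far more reads than Atf3, Sprr1a and Trib3, whose values are the less precise.

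**Figure D1:**
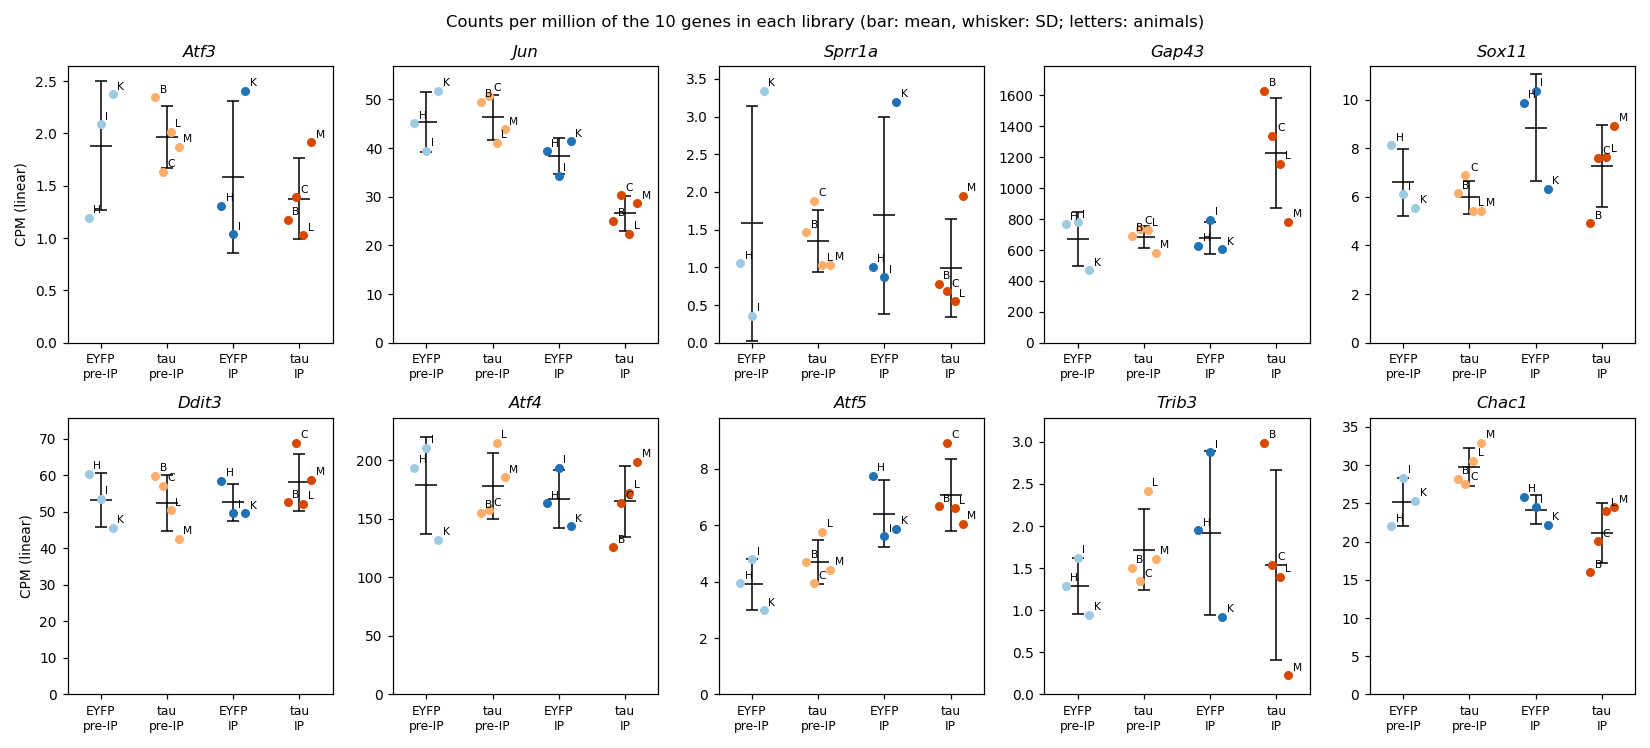
CPM of each of the 10 genes in the 14 libraries, 1 panel per gene with its own linear axis from 0. Points are libraries with their animal letters, grouped by treatment and fraction, bars are group means and whiskers SD. Tau IP stands above the other groups for Gap43, except animal M, and below them for Jun.

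Tau IP was first set against EYFP IP. Gap43, a membrane protein of growing axon tips, was higher by 0.99 on the log2 scale in tau IP, and Jun, the AP-1 factor that injury kinases act on, was lower by a log2 fold change of -0.42. Neither passed the threshold over all genes, and nor did the other 8 members. None of the 10 members was called in this comparison, where 0% of 19472 genes were called at an edgeR adjusted p under 0.05. At an unadjusted p under 0.05, 2 of the 10 members (Gap43 higher, Jun lower) stood beside 12% of all genes, 7.93% higher and 4.06% lower. The groups did not overlap for 1 member, Jun, against 15.6% of genes. The members' median log2 fold change was -0.10, that of all genes -0.08.

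Gap43 (ENSMUSG00000047261.9, chr16:42248442-42340651, minus strand, GRCm38) had 1628, 1340.2, 1158 and 781 CPM in the tau IP of animals B, C, L and M. In EYFP IP it had 628, 794 and 605 CPM in animals H, I and K. The tau animals B, C and L stood above every EYFP animal, and animal M lay just under animal I. The group means were 1227 ± 355 CPM in tau IP (SD, n = 4) and 676 ± 103 in EYFP IP (SD, n = 3), a log2 fold change of 0.99 (SE 0.26, adjusted p = 0.318 in edgeR). Without animal M the log2 fold change was 1.16 with an edgeR adjusted p of 0.0484, and without K and M together it was 1.11 with an adjusted p of 0.274. DESeq2 gave 1.02 with an adjusted p of 0.0213, and over 16 alternatives the log2 fold change ran from 0.76 to 1.16 and the adjusted p from 0.0213 to 0.636. As a difference of mean log2 CPM (TMM-scaled, prior count of 2), which is not the edgeR estimate, Gap43 was at 0.94 over all IP libraries. The direction was the same within both ranges of library numbers, with 1.26 for numbers up to 11 and 0.68 for numbers from 17. In the latter range animal K was the only EYFP animal.

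The tau IP libraries with more Gap43 also held more noradrenergic RNA. The summed markers were 5467 CPM in animal B, 3298 in C, 2816 in L and 872 in M, the same order as Gap43. In the EYFP IP of H, I and K they were 483, 462 and 530 CPM, the reverse of the order of Gap43 there (628, 794 and 605 CPM). Summed CPM of other cell types in tau IP were below those in EYFP IP for microglia (81.5 to 145 against 151 to 179) and other neurons (258 to 462 against 568 to 667). They overlapped for oligodendrocytes (3174 to 9098 against 7867 to 11727) and astrocytes (357 to 796 against 752 to 970). Their part in the Gap43 difference was not tested.

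**Figure D2:**
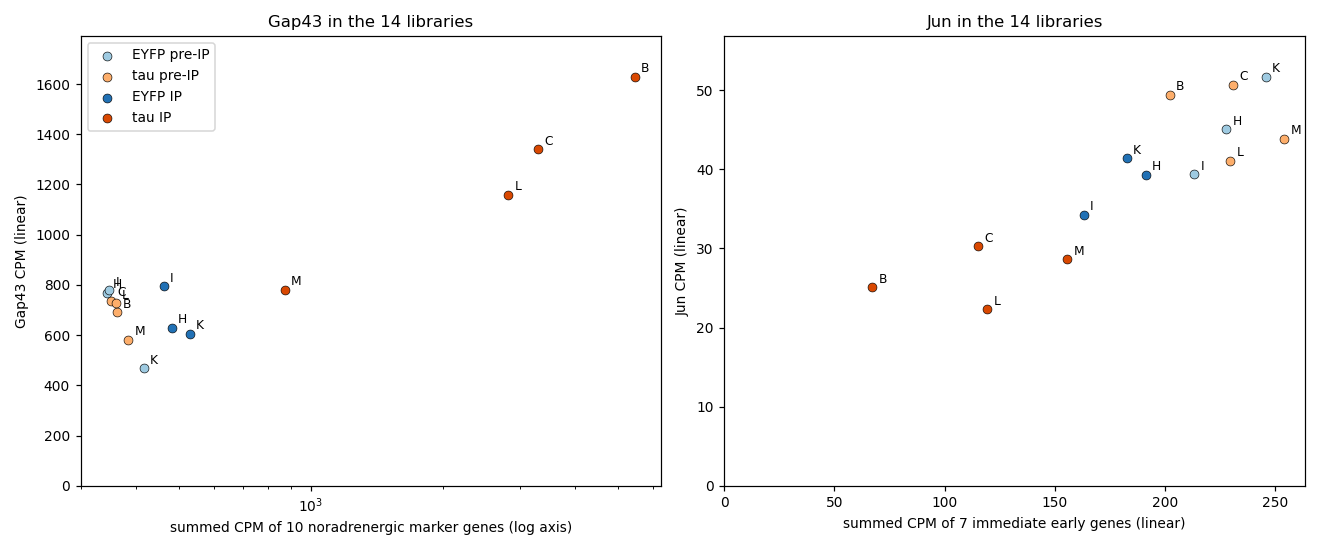
Left, Gap43 CPM against the summed CPM of 10 noradrenergic markers (log x axis), and right, Jun CPM against the summed CPM of 7 immediate early genes (linear x axis), in the 14 libraries, with colours for treatment and fraction and letters for animals. Tau IP libraries have 872 to 5467 CPM of noradrenergic markers with 781 to 1628 CPM of Gap43, and 67.2 to 156 CPM of immediate early genes with 22.3 to 30.3 CPM of Jun.

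Jun (ENSMUSG00000052684.4, chr4:95049034-95052222, minus strand) had 25.1, 30.3, 22.3 and 28.6 CPM in the tau IP of animals B, C, L and M and 39.3, 34.3 and 41.4 CPM in the EYFP IP of H, I and K. Every tau library lay below every EYFP library, as for 9.22% of all genes. The log2 fold change was -0.42 (SE 0.17, adjusted p = 0.387 in edgeR), and it stayed between -0.51 and -0.35 over 16 alternatives with adjusted p from 0.174 to 0.642. As a difference of mean log2 CPM, taken as for Gap43, Jun was at -0.41 over all IP libraries. This difference was -0.21 within library numbers up to 11 and -0.69 from 17, where K was the only EYFP animal. The other immediate early genes listed (Fos, Fosb, Egr1, Junb, Arc, Npas4 and Ier2), which are switched on within minutes of stimulation, summed to 67.2 to 156 CPM in tau IP and 163 to 191 CPM in EYFP IP. None of these 7 was at an edgeR adjusted p under 0.05 and 2 at an unadjusted p under 0.05, and their part in the Jun difference was not tested.

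The other 2 injury-induced factors showed no such separation. Atf3 (ENSMUSG00000026628.13, chr1:191170296-191218039, minus strand), a stress-induced repressor and activator of the ATF family, had 1.18, 1.39, 1.03 and 1.91 CPM in the tau IP of B, C, L and M. In the EYFP IP of H, I and K it had 1.31, 1.04 and 2.40 CPM. The groups overlapped, with a log2 fold change of -0.11 (SE 0.46, adjusted p = 0.944 in edgeR). It was 0.33 without animal K, 0.01 without L and 0.17 without K and M, so its direction was not settled. Sox11 (ENSMUSG00000063632.6, chr12:27334264-27342574, minus strand), a factor of developing and regenerating neurons, had 4.91, 7.59, 7.63 and 8.92 CPM in tau IP and 9.87, 10.3 and 6.32 CPM in EYFP IP, in the same order of animals. Its groups overlapped as well, with a log2 fold change of -0.18 (SE 0.26, adjusted p = 0.806 in edgeR).

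Sprr1a (ENSMUSG00000050359.7, chr3:92483952-92485895, minus strand), a small proline-rich protein of regenerating axons, was highest in animal K in both fractions. Its levels were 0.783, 0.684, 0.552 and 1.95 CPM in the tau IP of B, C, L and M and 1.00, 0.869 and 3.20 CPM in the EYFP IP of H, I and K. The pre-IP of animal K was also high, at 3.34 CPM, while the 12 libraries of the other animals ran from 0.361 to 1.95 CPM. The log2 fold change between tau and EYFP IP was -0.68 (SE 0.64, adjusted p = 0.700 in edgeR) with all animals and 0.19 without K.

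Among the stress response factors, Ddit3 (ENSMUSG00000025408.15, chr10:127290774-127296288, plus strand), whose product CHOP promotes cell death under prolonged stress, had 52.6, 69.0, 52.2 and 58.7 CPM in the tau IP of B, C, L and M. In EYFP IP it had 58.6, 49.8 and 49.7 CPM. Animal H lay within the tau range, and the log2 fold change was 0.25 (SE 0.15, adjusted p = 0.544 in edgeR). A second entry, whose annotation overlaps the first exons of Ddit3, had 0 counts in all libraries, and reads that fall on both may not have been counted. Atf4 (ENSMUSG00000042406.8, chr15:80255184-80257541, plus strand), the central factor of the response, lay between 126 and 199 CPM in tau IP and between 144 and 193 CPM in EYFP IP, with a log2 fold change of 0.09 (SE 0.16, adjusted p = 0.858 in edgeR). It was -0.02 without K and -0.00 without M. Atf5 (ENSMUSG00000038539.15, chr7:44812256-44816658, minus strand), which acts in the mitochondrial stress response, had 6.67, 8.93, 6.61 and 6.05 CPM in tau IP and 7.77, 5.61 and 5.88 CPM in EYFP IP. These overlapped, with a log2 fold change of 0.25 (SE 0.25, adjusted p = 0.715 in edgeR).

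The ATF4 and CHOP targets at the end of the pathway did not separate the treatments either. Trib3 (ENSMUSG00000032715.9, chr2:152337422-152344032, minus strand), a pseudokinase that restrains AKT, varied widely, with 2.99, 1.54, 1.40 and 0.230 CPM in the tau IP of B, C, L and M. In the EYFP IP of H, I and K it had 1.95, 2.88 and 0.922 CPM. Its log2 fold change was -0.15 (SE 0.73, adjusted p = 0.954 in edgeR), but 0.21 without M and 0.24 without I. Chac1 (ENSMUSG00000027313.3, chr2:119351229-119354381, plus strand), an enzyme that breaks down glutathione, had 16.0, 20.02, 24.03 and 24.5 CPM in tau IP and 25.9, 24.5 and 22.2 CPM in EYFP IP. Its log2 fold change was -0.09 (SE 0.18, adjusted p = 0.857 in edgeR).

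In pre-IP, which holds RNA of the whole brainstem piece, no member differed between treatments beyond the spread of the animals. The number of members called was 0, against 0% of 19197 genes, and 0 of the 10 had an unadjusted edgeR p under 0.05, against 2.84% of genes. DESeq2 called 0 members as well. No member's groups stood apart, against 3.12% of genes. Gap43 had 691, 737, 727 and 581 CPM in the tau pre-IP of B, C, L and M and 768, 778 and 469 CPM in the EYFP pre-IP of H, I and K, a log2 fold change of 0.05 (SE 0.16). Jun had 49.4, 50.7, 41.1 and 43.9 CPM in tau pre-IP and 45.1, 39.4 and 51.7 CPM in EYFP pre-IP, a log2 fold change of 0.04 (SE 0.14). For both genes the EYFP animals spanned the tau animals. The differences of 3 stress response genes were larger, though within their spread. Trib3 was at a log2 fold change of 0.44 (SE 0.30), Atf5 at 0.29 (SE 0.22) and Chac1 at 0.25 (SE 0.15), and the edgeR adjusted p of every member was 1.00.

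Of these 3, Chac1 came closest to a separation, with 28.2, 27.5, 30.6 and 32.9 CPM in the tau pre-IP of B, C, L and M and 22.01, 28.3 and 25.4 CPM in the EYFP pre-IP of H, I and K. Animal I alone lay within the tau range. Trib3 had 1.51, 1.35, 2.42 and 1.61 CPM in tau pre-IP and 1.29, 1.62 and 0.949 CPM in EYFP pre-IP, again with animal I inside the tau range.

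The remaining pre-IP differences were small or rested on 1 animal. Atf4 ran from 155 to 215 CPM in tau and from 132 to 211 CPM in EYFP pre-IP, and Ddit3 from 42.6 to 59.8 and from 45.6 to 60.4 CPM. Sox11 ran from 5.43 to 6.88 and from 5.54 to 8.13 CPM, and Atf3 from 1.63 to 2.34 and from 1.19 to 2.37 CPM. Each of these 4 genes had nearly the same range in both treatments or a wider one in EYFP animals. Atf4 was at 0.02 (SE 0.17), Ddit3 at 0.00 (SE 0.14), Atf3 at 0.06 (SE 0.29) and Sox11 at -0.12 (SE 0.18) on the log2 scale. Sprr1a was at -0.26 (SE 0.56) with all animals and at 1.02 without animal K, whose pre-IP held the highest value of the gene in any library.

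**Figure D3:**
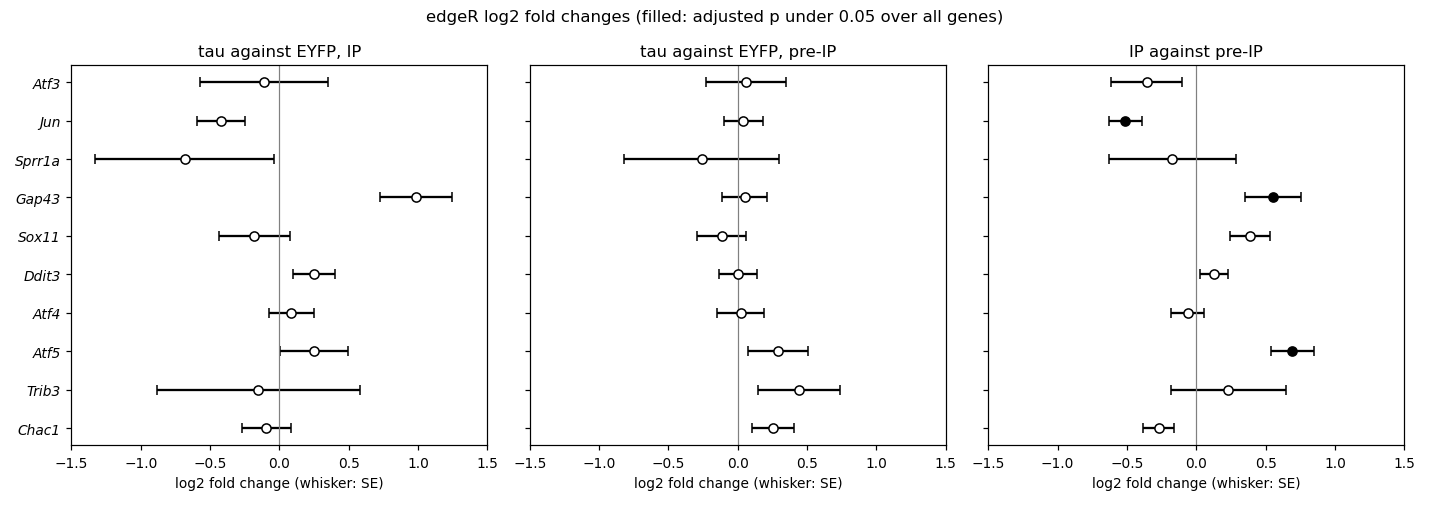
edgeR log2 fold changes of the 10 genes (points, whiskers are SE) for tau against EYFP in IP, tau against EYFP in pre-IP, and IP against pre-IP, filled where the adjusted p over all genes was under 0.05. The filled points are those of Jun, Gap43 and Atf5 in IP against pre-IP.

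IP was then set against pre-IP over all animals, which asks what the pulled-down ribosomes held more or less of than the homogenate. Atf5 and Gap43 were higher in IP and Jun was lower. These were 3 of 10 members called at an edgeR adjusted p under 0.05, beside 31% of 18792 genes, so the members' share was near that of all genes. By direction, 2 of 10 rose against 16.3% of genes and 1 of 10 fell against 14.7%. The members' median log2 fold change was 0.03, that of all genes -0.00. For no member did the 7 IP libraries stand clear of the 7 pre-IP libraries, as 9.46% of genes did.

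Atf5 had 4.69, 3.94, 5.77 and 4.43 CPM in the tau pre-IP of B, C, L and M and 3.94, 4.79 and 2.99 CPM in the EYFP pre-IP of H, I and K, below the IP level of the same animal in all 7. Its log2 ratio of IP to pre-IP was 0.76, 1.24, 0.23 and 0.41 in the tau animals and 1.03, 0.18 and 0.91 in the EYFP animals, above 0 in 7 of 7 animals as for 12.6% of genes. The log2 fold change was 0.69 (SE 0.15, adjusted p = 0.00322 in edgeR), and its call was lost in tau animals alone (0.64, adjusted p = 0.0566, or 0.0930 with the animal as a block) and in EYFP animals alone without the animal term (0.71, adjusted p = 0.113). The difference of this ratio between treatments was -0.04 (SE 0.32, adjusted p = 0.993 in edgeR).

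Jun fell in IP, with per-animal log2 ratios of -0.72, -0.67, -0.84 and -0.65 in tau animals B, C, L and M and -0.14, -0.24 and -0.38 in EYFP animals H, I and K. The ratio was below 0 in 7 of 7 animals, as for 14.6% of genes. Its log2 fold change was -0.51 (SE 0.12, adjusted p = 0.00446 in edgeR). In tau animals alone it was -0.74 (adjusted p = 0.00900 in edgeR), and in EYFP animals alone -0.25 and not called (edgeR adjusted p = 0.431, or 0.311 with the animal as a block). The 7 immediate early genes summed to 202 to 254 CPM in pre-IP, above both kinds of IP, and 2 of them fell with adjusted p under 0.05 (edgeR).

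Gap43 rose by 0.55 on the log2 scale (SE 0.20, adjusted p = 0.0453 in edgeR) over all animals. Its log2 ratio of IP to pre-IP was 1.49, 0.93, 0.71 and 0.40 in B, C, L and M and -0.23, -0.01 and 0.31 in H, I and K. In tau animals alone the log2 fold change was 0.92 (adjusted p = 0.0165 in edgeR) and in EYFP animals alone 0.01 (adjusted p = 0.982). The call was also lost on leaving out B (0.37, adjusted p = 0.122), C (0.49, adjusted p = 0.140), L (0.52, adjusted p = 0.121) or M (0.55, adjusted p = 0.0570), without K and M (0.62, adjusted p = 0.0633), and in limma voom (0.38, adjusted p = 0.0702).

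Sox11 lay at the threshold, with a log2 fold change of 0.39 (SE 0.15, adjusted p = 0.0544 in edgeR). Its ratio was above 0 in 6 of 7 animals, animal B being the exception at -0.07, and it was called in 6 of 20 alternatives, among them without K (0.43, adjusted p = 0.0493) and without B (0.45, adjusted p = 0.0297). Chac1 was at -0.27 (SE 0.11, adjusted p = 0.0816 in edgeR), with animal H alone above 0. It was called without H (-0.36, adjusted p = 0.0255) and in the tau animals with the animal as a block (-0.45, adjusted p = 0.0455). For the other 5 members the fractions did not differ beyond their spread. Atf3 was at -0.36 (SE 0.25), Trib3 at 0.23 (SE 0.41), Sprr1a at -0.17 (SE 0.46), Ddit3 at 0.13 (SE 0.10) and Atf4 at -0.06 (SE 0.12), with edgeR adjusted p from 0.310 to 0.812. Trib3 had the widest spread of ratios, from 1.22 in animal B to -2.66 in animal M.

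**Figure D4:**
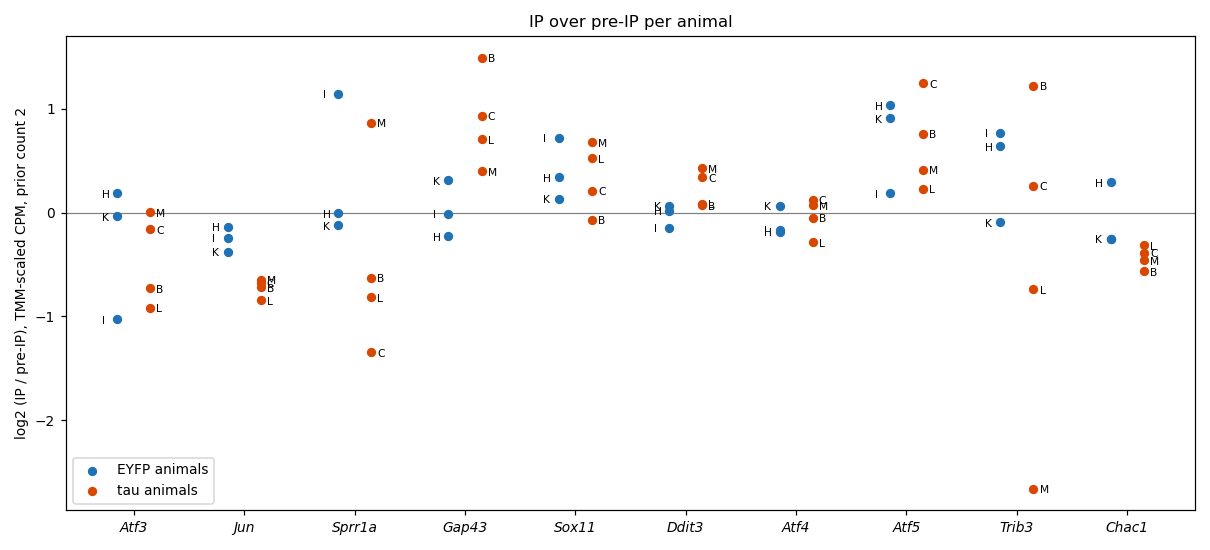
Log2 ratio of IP to pre-IP for each animal and gene (TMM-scaled CPM with a prior count of 2), tau and EYFP animals side by side, with the line at 0 marking equal levels. Jun is below 0 and Atf5 above 0 in all 7 animals, and the tau and EYFP animals stand apart for Gap43, Ddit3, Jun and Chac1.

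Whether the ratio of IP to pre-IP differed between treatments was tested as an interaction. None of the members was called, against 0% of 20495 genes, and 1 of 10 (Gap43) had an unadjusted edgeR p under 0.05, against 5.97% of genes and 4.03% in its direction. DESeq2 also called 0 members. The interaction of Gap43 was 0.95 (SE 0.33, adjusted p = 0.719 in edgeR), with a ratio in all 4 tau animals above that in all 3 EYFP animals. Without K and M it was 1.16 (adjusted p = 0.276 in edgeR). Jun was at -0.46 (SE 0.22, adjusted p = 0.820 in edgeR), with all 4 tau animals below all 3 EYFP animals. Chac1 was at -0.35 (SE 0.22, adjusted p = 0.839 in edgeR), with log2 ratios of -0.56, -0.39, -0.31 and -0.46 in B, C, L and M against 0.29, -0.25 and -0.25 in H, I and K. Ddit3 was at 0.25 (SE 0.20, adjusted p = 0.870 in edgeR), with 0.07, 0.34, 0.08 and 0.43 against 0.02, -0.15 and 0.06. The treatments' ratios thus did not overlap for 4 of 10 members, 2 higher and 2 lower in tau animals, against 10.5% of genes, 4.88% higher and 5.61% lower. With library totals in place of TMM scaling Ddit3 overlapped, which left 3 of 10 against 11.9%. The gaps were narrow for Ddit3, Chac1 and Gap43, the last lying between 0.40 in animal M and 0.31 in animal K. No test of these differences passed over all genes.

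The other genes of these pathways were read the same way, from lists by role. In tau against EYFP IP and pre-IP and in the interaction, no gene of any list below was called in edgeR. DESeq2 called 1 of them, Gal, in tau IP and in the interaction. In edgeR it was called in both without animal M or without a filter on low counts, in tau IP with all libraries in 1 fit, and without K and M in the interaction but not in tau IP. In tau IP 1 of 10 injury kinases and axon degeneration genes had a log2 fold change above 0, with a median of -0.16. Of 28 ATF4 targets tested, 7 were above 0 with a median of -0.18, and of 16 genes of the endoplasmic reticulum response, 4 were above 0 with a median of -0.13, where 43.4% of all genes were above 0. Without K and M these lists had 1 of 10, 8 of 28 and 8 of 16 above 0. In pre-IP they had 3 of 10, 20 of 28 and 4 of 16 above 0, beside 49.9% of all genes. The pre-IP count of ATF4 targets was 11 without H or without M, and that of endoplasmic reticulum genes 10 without K. In tau IP the 25 other regeneration genes tested divided into 13 above and 12 below, the 15 eIF2 kinases and factors into 7 and 8, and the 9 mitochondrial stress genes into 3 and 6. At an unadjusted edgeR p under 0.05 there were 3 higher and 1 lower regeneration genes, 1 and 4 ATF4 targets, 1 and 1 endoplasmic reticulum genes, 1 and 0 mitochondrial genes, 0 and 1 injury kinases and 0 and 0 eIF2 genes. Of the genes that the rule names by smallest p, Gal, the neuropeptide galanin that locus coeruleus neurons make, was at 3.86 (adjusted p = 0.318). Stmn2, a microtubule regulator of growing axons, was at 0.84 (adjusted p = 0.318), and Mapk8ip3, a JNK scaffold on transport vesicles, at -0.54 (adjusted p = 0.319). Among stress genes the transfer RNA ligase gene Aars1 was at -0.43 (adjusted p = 0.318), the stress sensor Sesn2 at -0.88 (adjusted p = 0.319), the secreted factor gene Manf at 0.81 (adjusted p = 0.340), the protein degradation gene Herpud1 at -0.37 (adjusted p = 0.347) and the mitochondrial co-chaperonin gene Hspe1 at 1.04 (adjusted p = 0.318), all edgeR. In the eIF2 list the amino acid sensor Eif2ak4 was at -0.54 (adjusted p = 0.427 in edgeR) and its inhibitor Impact at 0.33 (adjusted p = 0.549). In pre-IP the eIF2 kinase gene Eif2ak3 was at -0.69 and the endoplasmic reticulum gene Edem1 at -0.39 (edgeR adjusted p = 0.9998 each). For both the tau libraries lay below the EYFP libraries, where 3.12% of all genes had groups without overlap in either direction.

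In IP against pre-IP, 5 of the 10 injury kinases and axon degeneration genes fell and 1 rose, with a median of -0.42, where 14.7% of all genes fell and 16.3% rose. The DLK gene Map3k12 fell by 0.81 (adjusted p = 5.38e-05 in edgeR), Mapk8ip3 by 1.13 (adjusted p = 8.28e-05) and the axon degeneration gene Sarm1 by 0.98 (adjusted p = 0.000262), while the JNK gene Mapk8 rose by 0.77 (adjusted p = 0.00262). Of 25 other regeneration genes 7 rose and 3 fell, beside the same 16.3% and 14.7% of all genes. Gal rose by 3.15 (adjusted p = 0.00278 in edgeR) and Basp1, a growth cone protein of the same class as GAP43, by 1.41 (adjusted p = 0.00126), and the factors Smad1 and Stat3 fell by 0.54 and 0.49 (adjusted p = 0.000601 and 0.0111). With animal C left out the regeneration counts were 3 and 2, without L 4 and 1, and without K and M 6 and 2. Stat3 was not called without L, nor without K and M.

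The stress pathway genes moved both ways in IP. Of 15 eIF2 kinases and factors 6 rose and 4 fell, beside 16.3% and 14.7% of all genes, and without K and M 5 rose and 3 fell. The double-stranded RNA kinase gene Eif2ak2 rose by 1.12 (adjusted p = 0.00121 in edgeR). The largest fall past the threshold in this list was that of Ppp1r15b, by 0.75 (adjusted p = 0.000435 in edgeR). The amino acid sensor Eif2ak4 and the haem-regulated kinase gene Eif2ak1 fell by 0.50 and 0.48 (adjusted p = 0.0120 and 0.00151). Eif2ak4 was not called without C, nor without K and M. Of 28 ATF4 targets 3 rose and 3 fell, so 6 of 28 were called where 31% of all genes were. The counts were 2 and 2 without M, and 3 and 2 without K and M. Cebpb, a partner of ATF4, rose by 1.95 (adjusted p = 0.0272 in edgeR) and the transfer RNA ligase gene Eprs1 by 1.07 (adjusted p = 0.000811). The log2 ratio of IP to pre-IP of Cebpb was 3.76 in I but -0.16 in H and -0.45 in K, and its call was lost without I, L or M, in voom and at a mean of at least 50 counts. Sesn2 fell by 1.01 (adjusted p = 0.00215) and Ddit4, an inhibitor of mTOR, by 0.87 (adjusted p = 0.0125). Ddit4 was not called without M, nor without K and M.

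Chaperone genes of both compartments were among those that rose. In the endoplasmic reticulum list 5 of 16 rose and 2 fell, while the median of all 16 was -0.09, and 16.3% of all genes rose and 14.7% fell. The rise was led by Hsp90b1 at 1.18 and Dnajc3 at 0.75 (edgeR adjusted p = 4.85e-05 and 0.000365). The sensor Ern1 and the chaperone gene Hyou1 each fell by 0.52 (edgeR adjusted p = 0.0256 and 0.00759). Ern1 was not called without C, K, L or M, nor without K and M together. Hyou1 stayed called on leaving out any single animal, but not without K and M together. In the mitochondrial list 4 of 9 rose and 1 fell, beside those same shares, with a median of 0.33, led by the protease gene Yme1l1 at 1.30 and Hspe1 at 0.91 (edgeR adjusted p = 8.04e-05 and 0.00510). Without K and M the endoplasmic reticulum counts were 3 and 0 and the mitochondrial counts 4 and 0. With the animal as a block, these counts were 5 and 1 and 4 and 0 in tau animals alone. In EYFP animals alone they were 3 and 0 in each list. The mean log2 ratios in tau and EYFP animals were 1.16 and 1.18 for Hsp90b1, 0.65 and 0.89 for Dnajc3, and 1.38 and 1.16 for Yme1l1. They were 1.15 and 0.41 for Hspe1, and 5.70 and 1.47 for the noradrenergic marker Dbh. On leaving out each animal in turn, 3 (without C) to 5 endoplasmic reticulum genes rose and 1 (without C, K, L or M) to 3 (without B or H) fell, and 0 (without C, I, K, L or M) to 2 (without H) mitochondrial genes fell.

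**Figure D5:**
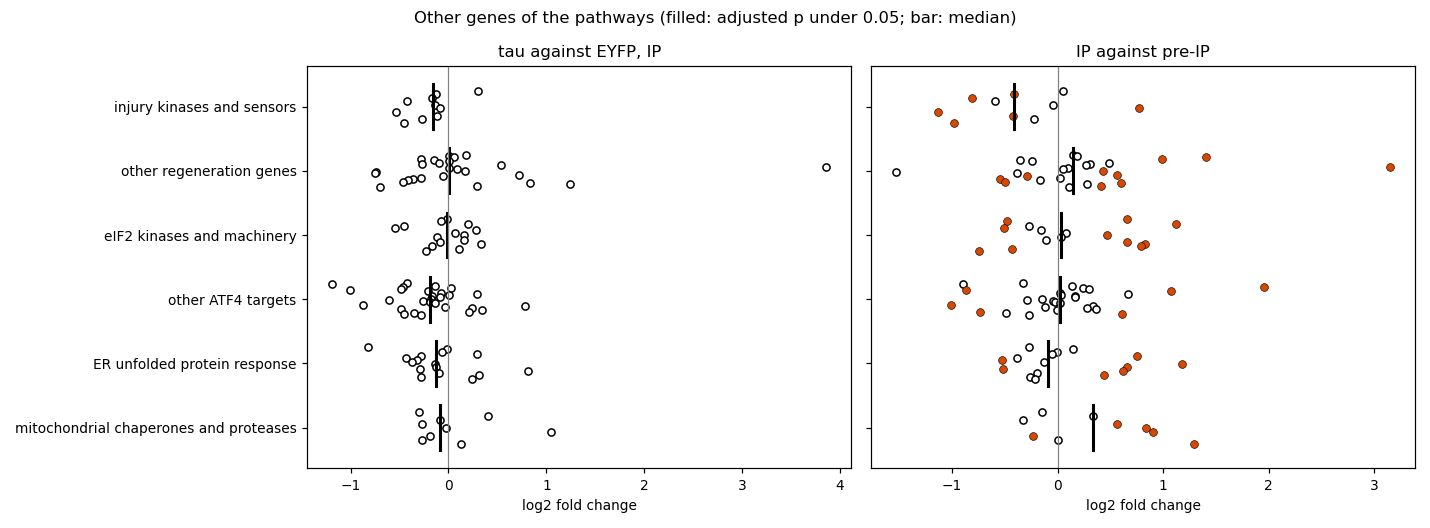
edgeR log2 fold changes of the genes in the 6 other pathway lists (points, 1 per gene tested) with the list median as a bar, for tau against EYFP in IP and for IP against pre-IP. Filled points passed an adjusted p under 0.05, which occurred in IP against pre-IP alone.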

How the data were processed

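Zymo columns were used to clean the RNA, per the labels' protocols, and its polyadenylated part was made into libraries with SMART-Seq v4 and Nextera XT kits. Per the submitters' processing notes, FastQC, Trim Galore, STAR, featureCounts and the builds GRCm38 and mm10 were named, without versions, and the use of strand is not given in the sources used here. The authors deposited whole-number read counts per gene, not normalized, for 55421 mouse genes and 1 tau construct. The RNA integrity score came from the deposited sample sheet. The count table's header had 2 empty cells too many, so columns were read by order, and the construct counts equalled those of the sheet in all libraries. Gene starts and ends equalled GENCODE M21 (GRCm38) for 50924 genes and differed for 0.

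From these counts, CPM were taken over the library total and RPKM over the deposited exon length. Tests used the edgeR 4.0.16 quasi-likelihood F test in R 4.3.3 with filterByExpr, TMM scaling and Benjamini-Hochberg adjustment over all genes tested, at a threshold of 0.05. The SE is the size of the log2 fold change over the square root of F. Tau was compared with EYFP within IP and within pre-IP, IP with pre-IP with treatment as a term, and the interaction over all 14 libraries. The fits of IP against pre-IP and of the interaction held no animal term. The libraries of an animal thus entered them as separate samples. Ratios per animal used a prior count of 2. Samples were grouped by their labels. For the ratios and the animal block, the libraries of an animal were paired by its letter, which the titles give. Deviations from the group means correlated by 0.15 to 0.36 between an animal's libraries. In none of 18 pairs of replicates did counts agree within sampling noise. Counting error allows detection down to 3 counts. The fits were tested on simulated data with planted changes larger than those of any member in the main fits. That test does not show how often changes of the members' size would be found.

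Alternatives were DESeq2 1.42.0, limma 3.58.1 voom, other filters and scalings, sex label or library-number range as covariate, the animal block, each treatment alone, all libraries in 1 fit and leaving out each animal. Leaving out animals K and M together was added after seeing the data. The members and lists were chosen with earlier results of these data known. All 10 members were named. From each other list a rule picked, per comparison, up to 3 genes in each direction with the largest changes past the threshold. Where none passed, it picked up to 2 with the smallest p. The text names only a part of these picks. Marker lists were read as summed CPM. Mesencephalic trigeminal markers summed to 55.3 to 97.3 CPM in tau IP and 85.4 to 105.9 in EYFP IP, and endothelial markers to 11.4 to 22.0 and 15.0 to 24.4.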

Additional observations from a re-analysis of the deposited data

Results flagged for a closer look

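Among 30 sets of 4 tau libraries (the CPM, or the ratio of IP to pre-IP, of 1 gene each), 1 had a library far from the others by Dixon's test, where chance gives about 1 in 20. Sprr1a had 1.95 CPM in the tau IP of animal M, and 0.552 to 0.783 CPM in the tau IP of the other 3 animals. In the pre-IP of animal M it had 1.03 CPM, within the range of the other tau pre-IP libraries.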

How the results depend on the processing

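Counts of all genes called moved with the processing. In tau against EYFP IP they were 342 in DESeq2, 113 without a filter on low counts, 202 with all libraries in 1 fit, 8 without animals K and M and 0 to 128 on leaving out each animal, the highest without M. The members called there were 1 in DESeq2 and 0 to 1 on leaving out each animal. In pre-IP the genes called were 44 without a filter, 1 without K and M and 0 to 1 on leaving out each animal. For the interaction they were 52 in DESeq2, 67 without a filter, 13 without K and M and 0 to 56 on leaving out each animal, and 0 with the animal block. IP against pre-IP called 1218 genes in EYFP animals alone and 3226 with the animal block there, with 0 and 1 members, and 4291 to 5920 genes with 2 to 4 members on leaving out each animal. The replicate block over all animals called 6119 genes and 3 members, and it changed no member's call and no count of a pathway list other than the mitochondrial one (5 rose, 0 fell). Where a cause is not evident from fewer samples or more genes tested, the cause was not tested.

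No member whose difference passed the threshold changed direction. Of those that did not pass, these log2 fold changes turned. Tau against EYFP IP: with the sex covariate Atf3 was 0.029, with the library-number range Trib3 was 0.0042, and without K and M Atf3 was 0.17 and Atf4 -0.084. On leaving out each animal Atf3 ran from -0.35 to 0.33, Sprr1a from -1.21 to 0.19, Atf4 from -0.017 to 0.19 and Trib3 from -0.79 to 0.24. In pre-IP, voom gave Sprr1a 0.71, Gap43 -0.014, Ddit3 -0.021 and Atf4 -0.082, the sex covariate gave Sprr1a 0.14, Ddit3 -0.018 and Atf4 -0.0057, and leaving out K and M gave Sprr1a 1.11, Gap43 -0.072 and Atf4 -0.17. Leaving out each animal gave Atf3 -0.21 to 0.30, Jun -0.052 to 0.19, Sprr1a -0.73 to 1.02, Gap43 -0.12 to 0.18, Sox11 -0.19 to 0.015, Ddit3 -0.064 to 0.080 and Atf4 -0.13 to 0.17.

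For IP against pre-IP, Trib3 was -0.31 in voom, -0.00046 with the replicate block, -0.056 in tau animals and -0.44 there with the block. Sprr1a was 0.061 in EYFP animals and 0.30 there with the block, and Ddit3 -0.0147 and -0.0152. Leaving out each animal gave Trib3 -0.075 to 0.46 and Sprr1a -0.44 to 0.025. For the interaction, voom gave Sox11 0.077 and Atf5 0.040, leaving out K and M gave Atf5 0.11, and leaving out each animal gave Atf3 -0.49 to 0.021, Sox11 -0.23 to 0.063, Atf4 -0.019 to 0.16 and Atf5 -0.35 to 0.12.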
